A study of Mus musculus with 12 samples.

Results

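The genes described here encode the phase II conjugating enzymes of the liver, taken as every gene whose symbol belongs to the families Ugt1 to Ugt3 (UDP-glucuronosyltransferases), Mgst1 to Mgst3 (microsomal glutathione transferases), Sult (sulfotransferases) or Gst classes alpha, mu, pi, theta, omega and zeta (glutathione transferases). The symbol rule found 66 genes among the 35498 of the count table. Of these, 24 encode enzymes of the endoplasmic reticulum (ER), namely 21 Ugt and 3 Mgst genes, and 42 encode cytosolic enzymes, namely 21 Sult and 21 Gst genes. Their mRNAs were measured in 6 WAM libraries and in the 6 lysate libraries of the same mice. WAM, wrappER-associated mitochondria, is the liver fraction of mitochondria recovered together with the sheets of rough ER wrapped around them, and the lysate is the homogenate from which it was prepared, freed of debris and nuclei by 3 low-speed spins. All animals were male C57BL/6N mice, 9 to 12 weeks old, sampled 3 h after refeeding, having been fasted overnight, and the labels list no transgene or agent. The comparison asks which of these mRNAs travelled with the rough ER and mitochondria and which did not.

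Conjugation makes drugs, hormones, bilirubin and bile acids water soluble by joining them to glucuronic acid, sulfate or glutathione. Glucuronosyltransferases begin with a signal sequence, are held in the ER membrane by a segment near their end, and work inside the ER lumen, whereas sulfotransferases and most glutathione transferases are soluble and made on free ribosomes. Microsomal glutathione transferases are small membrane proteins unrelated in sequence to the cytosolic glutathione transferases, although both use the same cosubstrate, so 1 chemistry is carried out by enzymes of both compartments.

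The classes differ in their coding sequences. Codons with T at the middle base specify only hydrophobic residues (phenylalanine, leucine, isoleucine, methionine and valine), so their crowding is a nucleotide trace of a signal sequence or a membrane segment. The first 30 codons of some members of each family, from GENCODE M21 transcripts on GRCm38, are printed 5′ to 3′ to show this difference. Middle-T codons are in capitals. The members were not taken by rank of level. Ugt2b36 and Ugt2b1, with a higher mean TPM than Ugt3a2, are not printed. Within codons 2 to 31 each of them has 12 middle-T codons, against 15 in Ugt3a2. Ugt1a1 lies at chr1:88211959-88218997 on the plus strand, Ugt2b5 at chr5:87124960-87140318 on the minus strand, Ugt3a2 at chr15:9335550-9370955 on the plus strand and Mgst1 at chr6:138140316-138156755 on the plus strand. Gstp1 lies at chr19:4035407-4037985, Gstm1 at chr3:108012255-108017973, Sult1a1 at chr7:126672865-126676432 and Sult2a8 at chr7:14410686-14446769, all on the minus strand.
Ugt1a1, codons 1 to 30: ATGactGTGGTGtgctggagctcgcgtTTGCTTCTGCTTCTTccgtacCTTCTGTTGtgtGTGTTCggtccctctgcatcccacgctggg
Ugt2b5, codons 1 to 30: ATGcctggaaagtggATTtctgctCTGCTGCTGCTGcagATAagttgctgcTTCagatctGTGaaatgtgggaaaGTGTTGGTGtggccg
Ugt3a2, codons 1 to 30: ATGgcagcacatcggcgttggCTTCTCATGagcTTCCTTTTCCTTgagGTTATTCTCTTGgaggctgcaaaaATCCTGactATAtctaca
Mgst1, codons 1 to 30: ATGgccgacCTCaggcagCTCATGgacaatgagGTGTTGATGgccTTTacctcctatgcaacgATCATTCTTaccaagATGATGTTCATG
Gstp1, codons 1 to 30: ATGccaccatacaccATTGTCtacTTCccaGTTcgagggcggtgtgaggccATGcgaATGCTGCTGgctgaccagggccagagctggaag
Gstm1, codons 1 to 30: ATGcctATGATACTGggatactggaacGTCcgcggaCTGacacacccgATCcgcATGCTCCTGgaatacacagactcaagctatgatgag
Sult1a1, codons 1 to 30: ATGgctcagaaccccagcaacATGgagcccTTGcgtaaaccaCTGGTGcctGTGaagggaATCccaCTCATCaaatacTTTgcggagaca
Sult2a8, codons 1 to 30: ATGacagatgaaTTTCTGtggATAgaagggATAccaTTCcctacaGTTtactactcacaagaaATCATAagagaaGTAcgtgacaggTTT
Of these 30 codons, 13 had a middle T in Ugt1a1, 12 in Ugt2b5, 15 in Ugt3a2 and 15 in Mgst1, against 9 in Gstp1, 10 in Gstm1, 10 in Sult1a1 and 11 in Sult2a8. The longest unbroken run was 5 codons in Ugt1a1 and 4 in each of Ugt2b5, Ugt3a2 and Mgst1, against 3 in Gstp1, 3 in Gstm1, 2 in Sult1a1 and 2 in Sult2a8.

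Further along, the densest stretch of 20 codons was compared, and it is printed for a Ugt1a gene, a Ugt2b gene, Mgst1 and a gene of each cytosolic family.
Ugt1a1, codons 490 to 509: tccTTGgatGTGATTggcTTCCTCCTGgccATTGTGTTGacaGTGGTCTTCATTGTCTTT
Ugt2b5, codons 497 to 516: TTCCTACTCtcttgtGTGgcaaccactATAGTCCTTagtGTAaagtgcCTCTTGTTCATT
Mgst1, codons 11 to 30: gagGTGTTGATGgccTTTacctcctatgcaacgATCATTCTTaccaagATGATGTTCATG
Gstp1, codons 143 to 162: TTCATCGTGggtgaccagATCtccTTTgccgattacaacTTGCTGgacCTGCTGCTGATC
Sult1a1, codons 112 to 131: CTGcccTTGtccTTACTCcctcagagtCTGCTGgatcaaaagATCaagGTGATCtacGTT
The Ugt1a1 stretch held 15 middle-T codons and the Ugt2b5 stretch 12, and both lie near the end of coding sequences of 535 and 530 codons. The Mgst1 and Gstp1 stretches held 11 each and the Sult1a1 stretch 10. The longest unbroken run in these stretches was 6 codons in Ugt1a1, 4 in each of Ugt2b5, Mgst1 and Gstp1, and 2 in Sult1a1, so by run length Gstp1 did not stand apart from Ugt2b5 and Mgst1. The stretch of Ugt1a6a, at codons 486 to 505, was identical to that of Ugt1a1, because the 9 Ugt1a genes join their own first exon to the same last exons and share 737 coding bases.

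Each library held between 8344196 and 9712455 estimated counts in WAM and between 7400274 and 12024128 in lysates. The 13 mitochondrially encoded mRNAs took 12.5% to 23.1% of counts in WAM and 2.19% to 3.29% in lysates, so the shares of all other mRNAs depend on how libraries are scaled. Unless stated otherwise, levels are library-scaled counts (CPM) on the TMM scale, which sets the libraries by their typical mRNA, and the median log2 fold change of all 11181 tested genes was -0.080. Scaled to library totals that median was -1.19, and every direction given for a gene or a family is relative to the typical mRNA. The difference between ER and cytosolic genes within a library is not touched by the scaling factor of the library.

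Of the 24 ER genes 19 had enough counts to be tested, and 18 of these were higher in WAM (edgeR quasi-likelihood test, Benjamini-Hochberg adjusted p under 0.05), with a median log2 fold change of 1.45, a 2.73-fold difference. Of all tested genes 58.2% were called, 29.5% higher and 28.8% lower. No ER gene was lower by edgeR, by an unadjusted p under 0.05 or by DESeq2, with 0 in each count. Scaled to library totals 8 of the 19 were called higher and 0 lower, with a median of 0.33, beside 503 higher and 8652 lower of the 11181 tested genes. All 18 called genes were at least 2-fold higher, a size reached by 16% of all tested genes, and in 14 the WAM libraries lay wholly above the lysates, as in 20.3% of all tested genes. The log2 fold changes of 18 of the 19 lay between 1.05 and 1.80, and Ugt1a10 stood apart at 3.51.

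**Figure D1:**
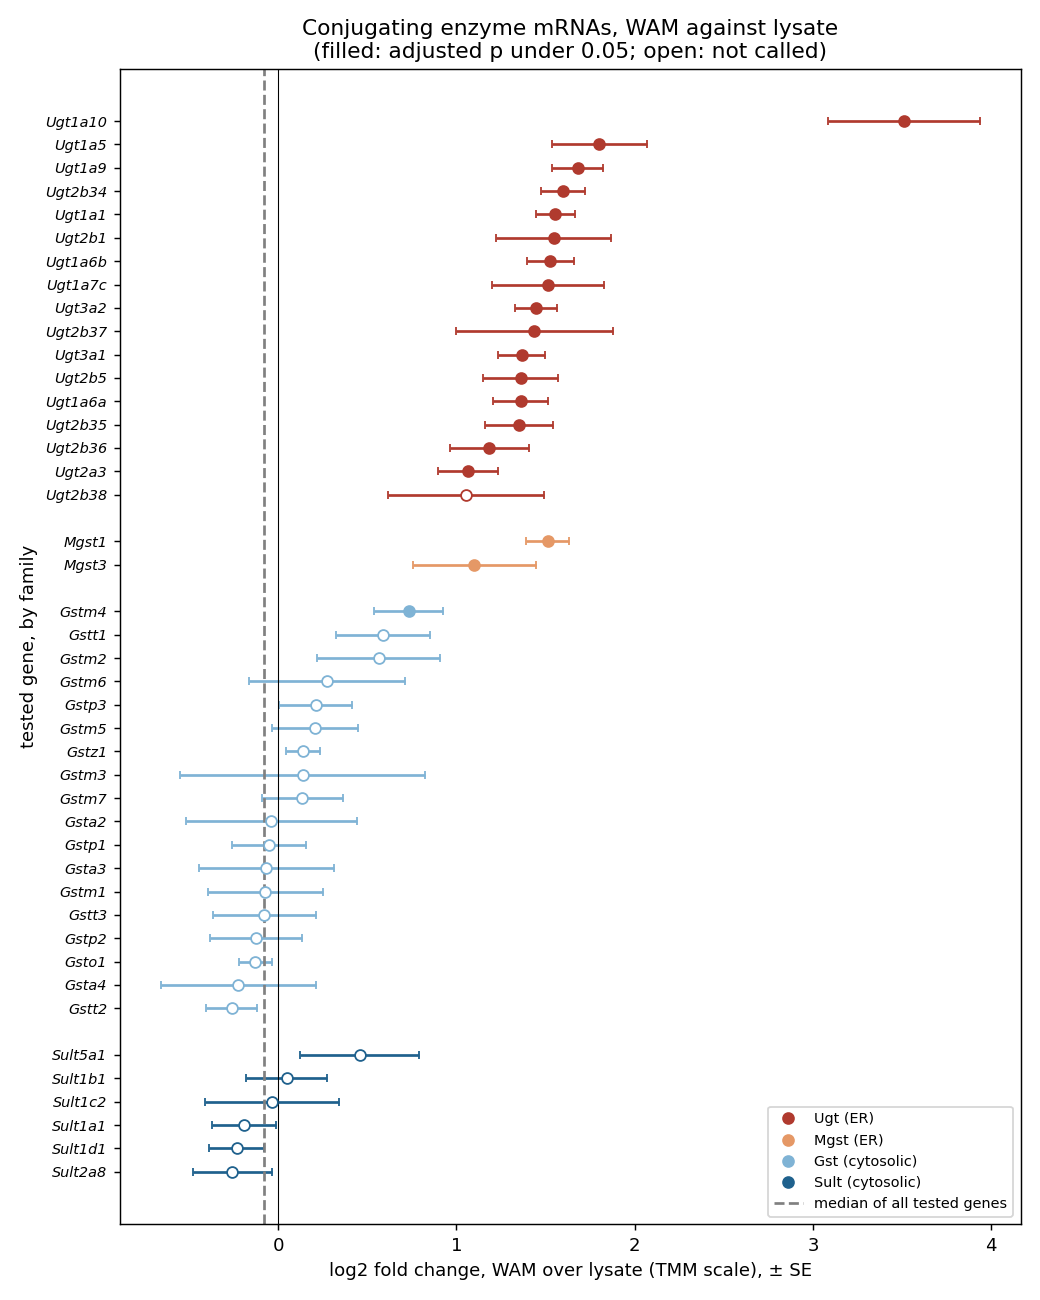
Log2 fold change, WAM over lysate on the TMM scale, of the 43 tested conjugating enzyme genes, with points for the estimate, bars for its SE over 6 WAM and 6 lysate libraries, filled points for adjusted p under 0.05 and a dashed line at the median of all tested genes (-0.080). All 19 ER genes lie above the highest cytosolic gene, Gstm4 at 0.73; scaled to library totals all values shift down, and all 24 cytosolic and 2 of the 19 ER genes lie below 0.

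Among the glucuronosyltransferases, Ugt2b5, an enzyme of steroid and drug conjugation, was the most abundant by TPM (a level per transcript length). It had between 996 and 2326 CPM in WAM, with a median of 1290, and between 412 and 694 CPM in lysates, with a median of 580. Every WAM library exceeded every lysate, and the log2 fold change was 1.36 (SE 0.21, edgeR adjusted p = 7.85e-05). Only 43.6% of the 31-base words of Ugt2b5 transcripts occur in no other gene, so part of its count could be shared with its neighbours on chromosome 5.

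Ugt2b36, of the same gene cluster, had between 423 and 1091 CPM in WAM, with a median of 653, and between 216 and 374 CPM in lysates, with a median of 310. The ranges did not overlap, and its log2 fold change of 1.18 (SE 0.22, edgeR adjusted p = 0.000417) was among the smaller ones of the family. Ugt2b1, 99.2% of whose 31-base words are its own, had between 545 and 1700 CPM in WAM, with a median of 1075, and between 164 and 546 CPM in lysates, with a median of 378. The ranges overlapped slightly, and mouse 5 was lowest in both fractions. Its log2 fold change was 1.55 (SE 0.32, edgeR adjusted p = 0.000952) and it was higher in WAM in 6 of 6 mice.

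Ugt2b38, a low member of the cluster with 47.1% of its 31-base words to itself, was the one tested ER gene not called. It had between 7.70 and 32.7 CPM in WAM, with a median of 12.7, and between 3.76 and 20.1 CPM in lysates, with a median of 6.39. Its log2 fold change of 1.05 (SE 0.44, edgeR adjusted p = 0.0531) was positive in 6 of 6 mice, and mouse 4 had the highest level in both fractions. With the mouse as a block it was called at the same size (log2 fold change 1.07, edgeR adjusted p = 3.85e-07), as it was without mouse 4 (edgeR adjusted p = 0.0151) and by DESeq2 (adjusted p = 0.0364).

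The other Ugt2 genes moved alike. Ugt2b34 had the narrowest lysate range of the family relative to its level, between 350 and 398 CPM, against 887 to 1453 CPM in WAM, with a log2 fold change of 1.60 (SE 0.12, edgeR adjusted p = 1.64e-07). Ugt2b35 was higher by 1.35, Ugt2b37 by 1.44 and Ugt2a3 by 1.06 on the log2 scale. The 2 Ugt3a genes, whose human relatives use sugars other than glucuronate, were higher by 1.37 (Ugt3a1) and 1.45 (Ugt3a2), with SEs of 0.13 and 0.12.

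The Ugt1a genes, which include the bilirubin enzyme Ugt1a1, share most of their mRNA, and none of the 9 has more than 47.0% of its 31-base words to itself. Ugt1a1 had between 728 and 1031 CPM in WAM, with a median of 885, and between 262 and 332 CPM in lysates, with a median of 301. This gave a log2 fold change of 1.55 (SE 0.11, edgeR adjusted p = 7.51e-08). All 7 tested Ugt1a genes were called higher, beside 29.5% of all tested genes. The 7 calls are not separate measurements, since reads of the shared exons could count toward several of them. Their log2 fold changes ran from 1.36 for the phenol-conjugating Ugt1a6a to 3.51 for Ugt1a10. Between them lay Ugt1a7c at 1.51, Ugt1a6b at 1.53, Ugt1a9 at 1.68 and Ugt1a5 at 1.80. Counted as 1 gene, the 9 together had a log2 fold change of 1.56 (SE 0.11, edgeR adjusted p = 1.03e-07).

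Ugt1a10 had the largest fold change of the 43 tested members. It had between 6.99 and 19.1 CPM in WAM, with a median of 11.5, and between 0.159 and 2.38 CPM in lysates, with a median of 0.762. Its lysate level rests on 84.1 estimated counts over 6 libraries, and 22.1% of its 31-base words are its own. The log2 fold change was 3.51 (SE 0.42, edgeR adjusted p = 8.11e-06), and the difference within single mice ran from 1.48 in mouse 6 to 5.58 in mouse 5. How the shared Ugt1a reads were divided was not tested, and the value is uncertain for that reason.

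Mgst1, the major microsomal glutathione transferase, found in ER and outer mitochondrial membranes, had the highest mean TPM over the 12 libraries of the 66 mRNAs. It had between 3505 and 4647 CPM in WAM, with a median of 4082, and between 1294 and 1730 CPM in lysates, with a median of 1415. The WAM libraries lay far above every lysate, the log2 fold change was 1.51 (SE 0.12, edgeR adjusted p = 2.02e-07), and its 31-base words are all its own. In the TPM of the authors, which count the mitochondrially encoded mRNAs in the total, Mgst1 was at 4524 ± 535 in WAM and 4619 ± 262 in lysates (SD, n = 6 each), so its TPM level was nearly equal while most other mRNAs were lower in WAM.

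Mgst3, a relative with glutathione peroxidase activity, was low, between 2.25 and 9.68 CPM in WAM, with a median of 7.40, and between 1.12 and 4.08 CPM in lysates, with a median of 3.34. The ranges overlapped, with mice 4 and 5 lowest in both fractions, and it was higher in WAM in 5 of 6 mice. Its log2 fold change was 1.10 (SE 0.35, edgeR adjusted p = 0.0143). Mgst2, which can make leukotriene C4, was not tested, and neither were Ugt1a2, Ugt1a8, Ugt2a1 and Ugt2a2, none with more than 53.5 estimated counts summed over the 12 libraries.

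Of the 42 cytosolic genes 24 were tested, and 1 was called, the mu-class Gstm4, which was higher in WAM. Without the mouse as a term, none was lower by edgeR, by an unadjusted p under 0.05 or by DESeq2, with 0 in each count. That edgeR fit called 29.5% of all tested genes higher and 28.8% lower. The fit with the mouse as a block called 5 of the 24 lower. The median log2 fold change without the block was -0.036, within a range from -0.26 to 0.73. In 0 of the 24 did the WAM and lysate libraries fall apart. Among all tested genes WAM lay wholly above the lysates in 20.3% and wholly below in 14.2%. Scaled to library totals 18 of the 24 were called lower and 0 higher, with a median of -1.12, close to the -1.19 of all tested genes. Of the 11181 tested genes 8652 were called lower there and 503 higher.

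Several cytosolic genes, such as Gstm1 and Gsta3, varied widely from mouse to mouse, with the same mice high or low in both fractions, while Gsto1 and Gstz1 varied little. With the mouse as a block, 4 were called higher and 5 lower. In that fit 33.5% of all tested genes were called higher and 36.2% lower. The 4 were Gstm4 (log2 fold change 0.72), Gstt1 (0.60), Gstm2 (0.54) and Sult5a1 (0.43), and the 5 were Sult2a8 (-0.27), Gsta4 (-0.27), Gstt2 (-0.27), Sult1d1 (-0.23) and Sult1a1 (-0.20). All 19 ER genes were called higher in it.

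Gstp1, the pi-class enzyme abundant in male mouse liver, was the most abundant cytosolic member by TPM. It had between 1127 and 2303 CPM in WAM, with a median of 1660, and between 1184 and 2345 CPM in lysates, with a median of 1769. The ranges coincided almost wholly, and the log2 fold change was -0.051 (SE 0.21, edgeR adjusted p = 0.846). In TPM it was at 2028 ± 674 in WAM and 6011 ± 1397 in lysates (SD, n = 6 each), where Mgst1 was nearly equal. Its 31-base words are 61.5% its own, and those of its neighbour Gstp2 39.7%, so reads could pass between them.

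Gstm1, a mu-class enzyme, had between 434 and 1355 CPM in WAM, with a median of 850, and between 526 and 1254 CPM in lysates, with a median of 903. Mice 1 to 3 had at least 1069 CPM in WAM and 1176 CPM in lysates and mice 4 to 6 at most 631 CPM in either, and the log2 fold change was -0.072 (SE 0.32, edgeR adjusted p = 0.861). Gsta3, the alpha-class enzyme that protects mice from aflatoxin, had between 311 and 1270 CPM in WAM, with a median of 761, and between 379 and 1151 CPM in lysates, with a median of 816. Mice 1 to 3 were again the higher ones, and the log2 fold change was -0.065 (SE 0.38, edgeR adjusted p = 0.893).

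Gstm4 was the only cytosolic gene called in the TMM-scaled edgeR fit over all libraries without the mouse as a block. It had between 33.1 and 71.6 CPM in WAM, with a median of 47.4, and between 21.8 and 41.7 CPM in lysates, with a median of 29.7. The ranges overlapped, but WAM was higher in 6 of 6 mice, with a log2 fold change of 0.73 (SE 0.20, edgeR adjusted p = 0.00566), below that of every tested ER gene. Its call was lost on library totals, where the log2 fold change was -0.36 (edgeR adjusted p = 0.122), and with limma on TPM plus 5 (0.20, adjusted p = 0.301).

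Gstt2, a theta-class enzyme, had the lowest log2 fold change of all tested members. It had between 12.4 and 25.6 CPM in WAM, with a median of 17.7, and between 17.5 and 25.1 CPM in lysates, with a median of 22.9. Its log2 fold change was -0.26 (SE 0.14, edgeR adjusted p = 0.133), negative in 5 of 6 mice, and it was called lower with the mouse as a block (edgeR adjusted p = 0.0132) and without mouse 6 (-0.38, edgeR adjusted p = 0.0273). Gstt2 was also called lower by limma on TPM plus 1 (-0.62, adjusted p = 0.00273), plus 0.1 (-0.56, adjusted p = 0.00917) and plus 5 (-0.72, adjusted p = 0.000110).

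The remaining tested Gst genes were not called and lay between -0.22 (Gsta4) and 0.59 (Gstt1). Gstt1 was higher in WAM in 6 of 6 mice by nearly the same amount, with an SD of the within-mouse log2 difference of 0.058 beside an SD between lysates of 0.55. Gstm2 was higher in 6 of 6 mice as well, at 0.56. Gstm5, at 0.21, was above its lysate in 6 of 6 mice too, but by only 0.0052 on the log2 scale in mouse 6. With the mouse as a block Gstm5 was not called (edgeR adjusted p = 0.250). Gstz1, an enzyme of tyrosine breakdown that is also found in mitochondria, was steady between mice, with 508 ± 51 CPM in WAM and 461 ± 44 CPM in lysates (SD, n = 6 each) and a log2 fold change of 0.14 (SE 0.097, edgeR adjusted p = 0.230). Gsto1, which reduces dehydroascorbate, was at -0.13 (SE 0.092, edgeR adjusted p = 0.248). Gsta1, Gsto2 and Gstt4 were not tested.

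The sulfotransferases were led by Sult2a8, an enzyme of bile acid sulfation in mouse liver. It had between 284 and 771 CPM in WAM, with a median of 471, and between 379 and 841 CPM in lysates, with a median of 587. It was lower in WAM in all 6 mice although the ranges overlapped, and its log2 fold change of -0.26 (SE 0.22, edgeR adjusted p = 0.334) was called only with the mouse as a block among the TMM-scaled edgeR fits (edgeR adjusted p = 0.00802).

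Sult1a1, which sulfates phenols, had between 110 and 209 CPM in WAM, with a median of 150, and between 133 and 220 CPM in lysates, with a median of 167. Mouse 6 was highest in both fractions, and the log2 fold change was -0.19 (SE 0.18, edgeR adjusted p = 0.376; 0.0210 with the mouse as a block). Sult1d1, which sulfates catecholamines, had between 59.7 and 106 CPM in WAM, with a median of 91.5, and between 79.0 and 129 CPM in lysates, with a median of 102. The ranges overlapped, and the log2 fold change was -0.23 (SE 0.15, edgeR adjusted p = 0.206; 0.0105 with the mouse as a block).

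Sult5a1 had the highest log2 fold change of its family. It had between 5.76 and 20.9 CPM in WAM, with a median of 9.19, and between 4.76 and 15.2 CPM in lysates, with a median of 7.28. WAM was higher in 6 of 6 mice by less than the spread between mice, with a log2 fold change of 0.46 (SE 0.33, edgeR adjusted p = 0.254; 0.000728 with the mouse as a block). Sult1b1, which sulfates thyroid hormones, and Sult1c2 were near 0, at 0.048 and -0.034. The other 15 Sult genes were not tested, and 6 of them (Sult1c1, Sult2a3, Sult2a4, Sult2a6, Sult3a2 and Sult6b2) had no count in any library, which allows up to 0.0284 CPM (3 counts of all 12 libraries, counting error only).

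**Figure D2:**
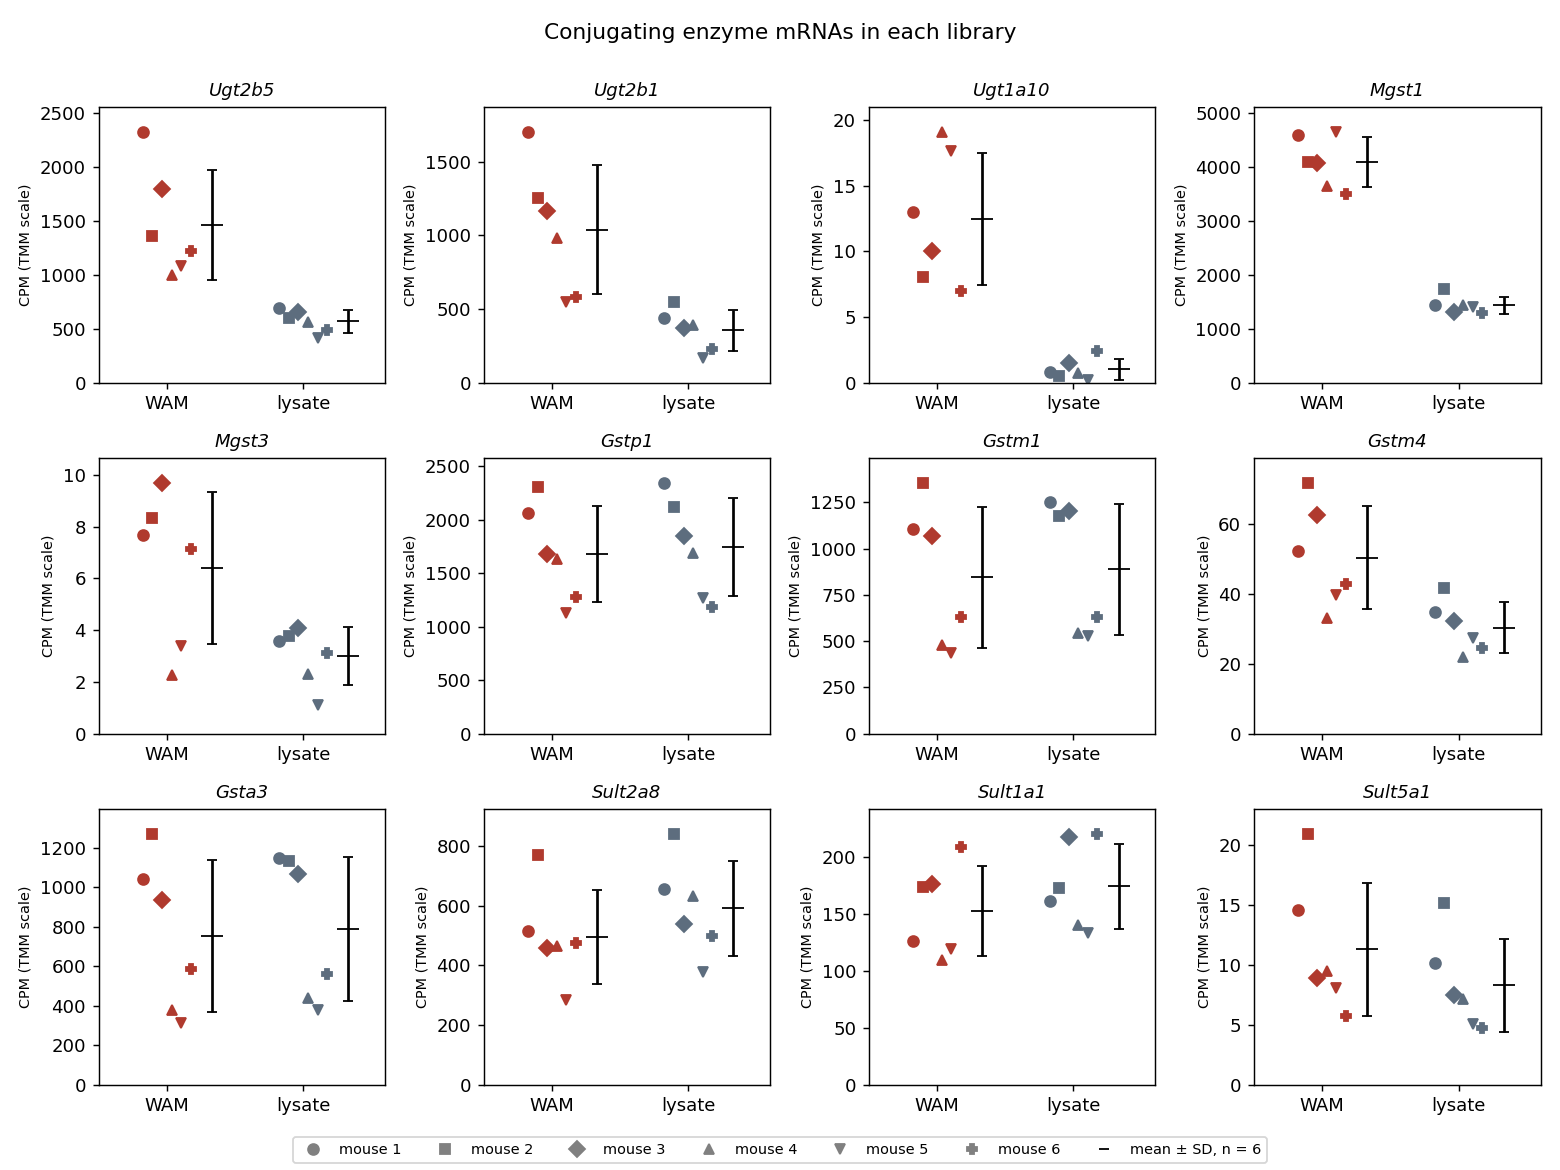
CPM on the TMM scale of 12 conjugating enzyme genes in each WAM and lysate library, with 1 symbol per mouse and a bar for the mean ± SD (n = 6). Mgst1 separates wholly, between 3505 and 4647 CPM in WAM and 1294 and 1730 in lysates, while Gstp1, Gstm1 and Gsta3 overlap, with mice 1 to 3 above mice 4 to 6 in both fractions.

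Set against each other, the ER and cytosolic genes differed by a median of 1.48 on the log2 scale in the fit over all libraries, and all 19 tested ER genes lay above the highest cytosolic one. Within single mice the median of the 19 ER genes was between 1.17 and 1.69 and that of the 24 cytosolic genes between -0.23 and 0.19. The difference was 1.83 in mouse 1, 1.01 in mouse 2, 1.62 in mouse 3, 1.23 in mouse 4, 1.77 in mouse 5 and 1.22 in mouse 6, with a mean of 1.45 ± 0.34 (SD, n = 6). It was positive in every mouse, from 2.01-fold to 3.55-fold. No test was run on this score, because the members were chosen with results known. In mice 1, 3, 5 and 6 all 19 ER genes were above the highest cytosolic gene of that mouse, and in mice 2 and 4 this held for 18 and 17.

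**Figure D3:**
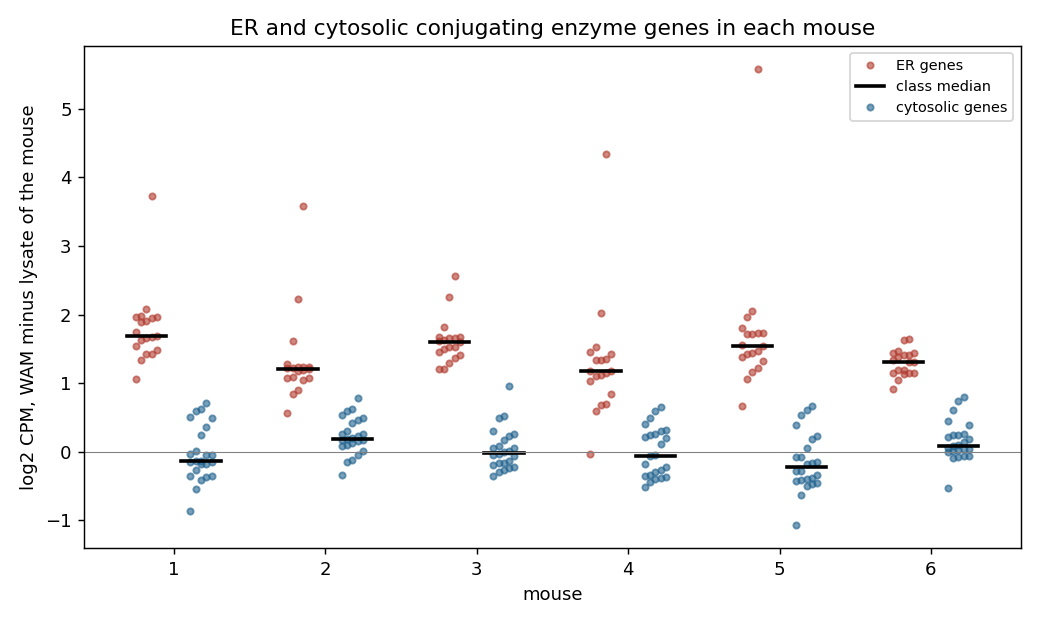
Log2 CPM in WAM minus log2 CPM in the lysate of the same mouse for the 19 ER and 24 cytosolic tested genes, 1 point per gene, with a bar at each class median. The ER medians lie between 1.17 and 1.69 and the cytosolic medians between -0.23 and 0.19; scaling moves all points of a mouse together.

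The same contrast was seen in the share of mRNA each class took, per transcript length. Without the mitochondrially encoded mRNAs, the ER genes made up 0.937% ± 0.078 of TPM in WAM and 0.768% ± 0.023 in lysates, and the cytosolic genes 0.558% ± 0.173 in WAM and 1.27% ± 0.30 in lysates (SD, n = 6 each). The WAM share of the ER class was above the lysate share in each mouse, least so in mouse 4 with 0.800% in WAM and 0.772% in lysate. The Ugt genes alone made up 0.323% ± 0.064 in WAM and 0.279% ± 0.030 in lysates (SD, n = 6 each). Their share in mouse 4 was lower in WAM, at 0.255% against 0.275% in lysate. With the mitochondrially encoded mRNAs in the total, the ER share was 0.693% ± 0.101 in WAM and 0.726% ± 0.022 in lysates, so the direction of the mean turned, although mice 1, 2 and 6 were still higher in WAM, while the cytosolic share stayed lower at 0.418% ± 0.158 in WAM and 1.198% ± 0.286 in lysates.

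The ratio of the classes does not depend on that total. ER mRNA summed to between 1.16 and 2.76 times cytosolic mRNA in WAM, with a median of 1.73, and to between 0.471 and 0.801 times in lysates, with a median of 0.634. Every WAM library held more ER than cytosolic mRNA of these families and every lysate less, and the ratio was 2.11-fold to 3.62-fold larger in WAM within a mouse. A few genes carry these sums: Mgst1 held 65.3% of ER TPM in WAM and 63.6% in lysates, and Gstp1 held 48.5% of cytosolic TPM in WAM and 50.2% in lysates. These leading shares were nearly the same in both fractions.

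**Figure D4:**
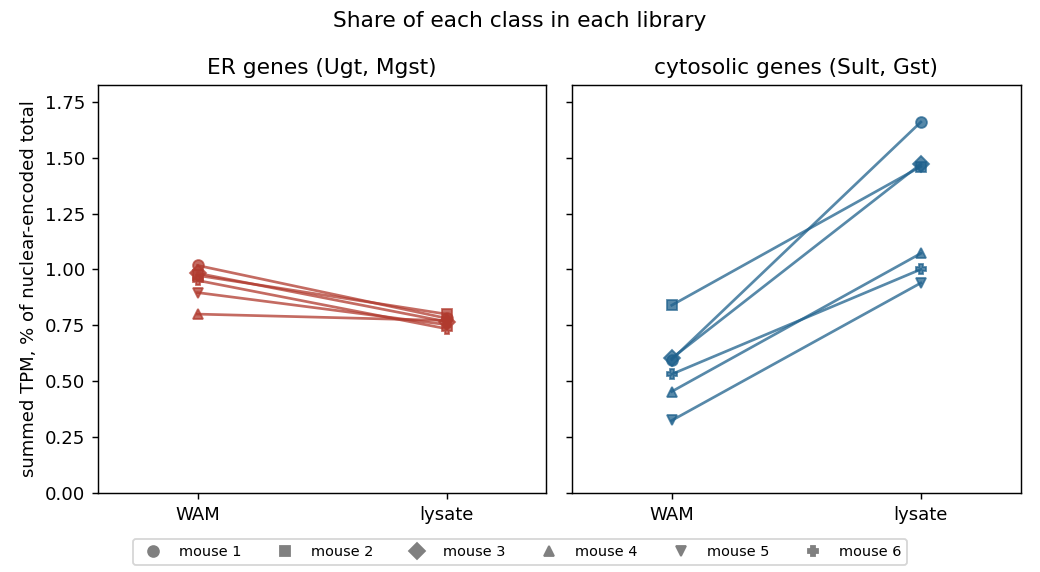
Summed TPM of the ER genes (left) and the cytosolic genes (right) as a percent of the nuclear-encoded total in each library, WAM and lysate of a mouse joined by a line. ER shares are 0.800% to 1.02% in WAM and 0.735% to 0.800% in lysates, and cytosolic shares 0.325% to 0.840% in WAM and 0.940% to 1.66% in lysates.

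Variation between mice was compared as well. In lysates the SD of log2 CPM had a median of 0.28 over the ER genes and 0.47 over the cytosolic genes, beside 0.19 over all tested genes. In WAM these medians lay closer, at 0.42 over the ER genes and 0.50 over the cytosolic genes, beside 0.26 over all tested genes. The mu-class Gstm3 was the extreme member, spanning 6.26 to 79.5 CPM in WAM and 7.96 to 66.6 CPM in lysates. The within-mouse difference had a median SD of 0.19 over the cytosolic genes and 0.29 over the ER genes, beside 0.24 over all tested genes. Batches were not given in the labels, and mice 1 to 3 against 4 to 6 is an order seen in the values only.

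The middle-T codons followed the split. Within codons 2 to 31, 18 of the 19 tested ER genes had at least 12 of them, with a median of 14, and 1 of the 24 cytosolic genes did, with a median of 8. That 1 was Gstt1, with 12, which lay at 0.59. In the densest 20 codons the ER genes had 11 to 15 and the cytosolic genes 9 to 11, and Mgst1 was the ER gene with 11. Across the 10974 tested genes with a coding sequence, the 1194 with at least 12 in codons 2 to 31 had a median log2 fold change of 1.09, and 71.9% of them were called higher. The 9780 with fewer had a median of -0.15, and 24.3% of them were called higher.

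Set beside tested genes with the same number in their densest stretch, ER members lay near or above the median. Genes with 15 had a median of 1.06, Ugt2b36 with 15 lay at 1.18, and the Ugt1a genes with 15 lay at 1.36 or more. Genes with 12 had a median of 0.18, and the ER members with 12 ran from 1.10 (Mgst3) to 1.44 (Ugt2b37). Genes with 11 had a median of -0.18, against 1.51 for Mgst1. Genes with 10 had a median of -0.22, and the 24 cytosolic genes one of -0.036. Within the cytosolic class the number did not order the genes (Spearman's rho -0.050 over 24 genes), and within the ER class it did so loosely (rho 0.44 over 19 genes, of which 7 share the Ugt1a exons). These are descriptions across genes of 1 experiment, and length and base composition differ with the number. Tested ER transcripts had a median length of 2224 bases and cytosolic ones 1300, and with the trend of the fold change on length removed the difference between the class medians was 1.64.

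**Figure D5:**
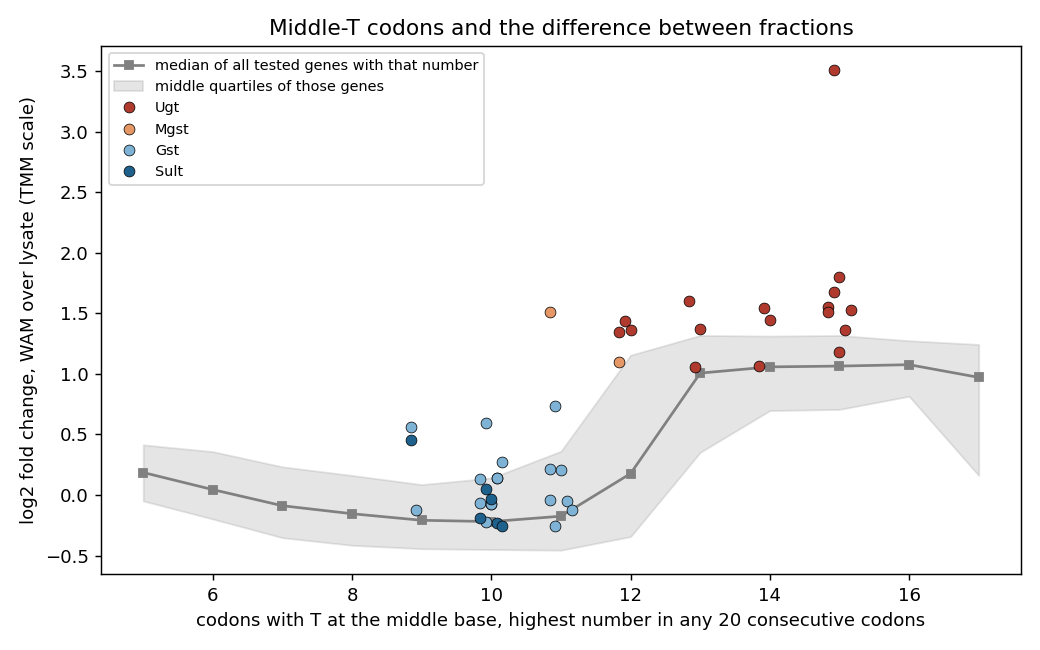
Log2 fold change, WAM over lysate on the TMM scale, against the highest number of middle-T codons in 20 consecutive codons, for the 43 tested conjugating enzyme genes and, in grey, the median and middle quartiles of all tested genes with that number. Medians lie between 0.97 and 1.08 at 13 or more and between -0.22 and 0.19 at 11 or fewer; Mgst1 lies at 1.51 with 11, well above the grey band.

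The genes that serve these enzymes were described from lists by role. Of the 6 genes that make UDP-glucuronate, carry nucleotides or nucleotide sugars across membranes, or cleave glucuronides (Gusb), 4 were called higher in WAM and 0 called lower (0 by DESeq2, 1 at an unadjusted p under 0.05, 2 with the mouse as a block), with a median log2 fold change of 1.06. Of all tested genes 29.5% were called higher and 28.8% lower, and 33.5% and 36.2% with the mouse as a block. The largest change was in Slc35b1, a nucleotide carrier of the ER membrane, with 83.1 ± 17.1 CPM in WAM and 30.7 ± 4.4 CPM in lysates (SD, n = 6 each; log2 fold change 1.44, edgeR adjusted p = 1.03e-06). The most abundant, Ugp2, which makes UDP-glucose in the cytosol, was at -0.45 (edgeR adjusted p = 0.214; 5.30e-05 with the mouse as a block).

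Of 7 genes that supply the sulfate donor or return its products, 5 were called higher and 0 called lower (0 also by DESeq2 and at an unadjusted p under 0.05, 1 with the mouse as a block), beside 29.5% higher and 28.8% lower of all tested genes, with a median of 0.96. The fit with the block called 36.2% of all tested genes lower. Slc35b2, the Golgi carrier of the sulfate donor, had the largest change, with 46.6 ± 8.1 CPM in WAM and 16.8 ± 1.0 CPM in lysates (SD, n = 6 each; log2 fold change 1.47, edgeR adjusted p = 9.83e-08). Slc26a1, a sulfate transporter of the cell surface, was the most abundant, at 1.44. The donor-making enzyme Papss2, which is cytosolic and nuclear, was chosen here after its value was seen and lay at -0.36 (edgeR adjusted p = 0.228; 5.81e-05 with the mouse as a block).

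Of 14 tested genes of glutathione synthesis and turnover 3 were called higher and 4 called lower, near the 29.5% and 28.8% of all tested genes, and the median was -0.10. With the mouse as a block 3 were called higher and 7 lower, beside 33.5% and 36.2% of all tested genes in that fit. The largest change was in Ggt6, a relative of the membrane-bound glutathione hydrolases, at 1.04 (SE 0.16, edgeR adjusted p = 8.87e-05), and the most abundant was Gpx1, a glutathione peroxidase, at 0.48 (SE 0.13, edgeR adjusted p = 0.00501). The remaining higher gene, Gstk1, named after its value was seen, a glutathione transferase of mitochondria and peroxisomes that the symbol rule does not take, was at 0.98 (SE 0.078, edgeR adjusted p = 2.02e-07). The 4 lower genes were Gclm and Gss, which build glutathione, Cbs, which feeds cysteine to it, and Txnrd1, a thioredoxin reductase, between -0.40 and -0.23.

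Of 18 other conjugating or related enzymes 8 were called higher and 1 called lower, beside 29.5% and 28.8% of all tested genes, and the median was 0.10. With the mouse as a block 8 were called higher and 5 lower, beside 33.5% and 36.2% of all tested genes. Mettl7b, a methyltransferase of the ER membrane, led them with 1033 ± 141 CPM in WAM and 320 ± 19 CPM in lysates (SD, n = 6 each; log2 fold change 1.69, edgeR adjusted p = 4.77e-08). Gnmt, the cytosolic glycine methyltransferase, was the most abundant and lay at -0.062 (edgeR adjusted p = 0.802). The one called lower without the block, named for that, was Baat, which joins bile acids to amino acids, at -0.48 (edgeR adjusted p = 0.00623).

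All 6 genes of the pumps that carry conjugates out of the hepatocyte were called higher, beside 29.5% of all tested genes, with a median of 1.15. On library totals 1 of the 6 was, beside 503 of the 11181 tested genes. The largest change was in Abcc3, with 295 ± 46 CPM in WAM and 112 ± 12 CPM in lysates (SD, n = 6 each; log2 fold change 1.39, edgeR adjusted p = 2.59e-07), and the most abundant was the bile salt pump Abcb11, at 1.14. Of the 3 relatives of Mgst in the list 1 was tested, the leukotriene helper Alox5ap, which was higher at 1.01 (SE 0.31, edgeR adjusted p = 0.0124).

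Of 11 genes for regulators of these enzymes, namely transcription factors and Keap1, the cytoplasmic partner of Nfe2l2, 9 were lower and 0 higher (0 also by DESeq2 and at an unadjusted p under 0.05), beside 28.8% lower of all tested genes, with a median of -0.46. Nfe2l2, which drives Gst genes, changed most, with 28.7 ± 5.7 CPM in WAM and 49.8 ± 4.4 CPM in lysates (SD, n = 6 each; log2 fold change -0.79, edgeR adjusted p = 7.31e-05), and Hnf4a was the most abundant, at -0.45. On library totals the list medians were -0.058 for UDP-glucuronate, -0.17 for the sulfate donor, -1.21 for glutathione, -0.94 for other conjugation, 0.037 for efflux and -1.56 for regulators, beside -1.19 for all tested genes.

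The authors' deposited table of WAM enrichment, restricted by its authors to 1160 genes above a TPM minimum, holds 19 of the 66 genes. In it WAM TPM divided by a mitochondrial content coefficient is given as a percent of lysate TPM. The 13 ER genes in the authors' deposited table lay between 16.5% (Ugt2b36) and 24.3% (Ugt1a9), with a median of 21.4%, and Mgst1 was at 22.1%. The 6 cytosolic genes in the authors' deposited table lay between 7.17% (Sult1a1) and 12.1% (Gstt1), with a median of 8.15%, and the median of the whole list was 15.4%. The 2 classes did not overlap there. These percents are made from the authors' TPM of the same 2 fractions, so they are not a separate observation, and Gstm4 was not among the 6. In the localisation marks of the authors' deposited table, 6 of the 13 were marked as ER proteins and Mgst1 as mitochondrial, while 4 of the 6 cytosolic genes were marked as cytosol, Gstz1 as mitochondrial and Gstp1 as lysosomal.

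Markers of liver cell types were read beside these results, and their calls stand beside 29.5% higher and 28.8% lower of all tested genes. Hepatocyte markers made up 4.72% to 9.63% of counts in WAM and 4.81% to 8.10% in lysates, with 6 of 8 genes called higher and 2 lower. Kupffer cell and macrophage markers made up 0.0264% to 0.0931% in WAM and 0.0177% to 0.0699% in lysates, with 8 of 9 called higher. Endothelial markers made up 0.0145% to 0.0208% in WAM and 0.0131% to 0.0209% in lysates, with 8 of 8 higher, and stellate cell markers 0.0161% to 0.0198% in WAM and 0.0154% to 0.0217% in lysates, with 5 of 8 higher. Cholangiocyte markers stayed at or below 0.00166% and neutrophil markers at or below 0.00155%, and no marker of any list was at 0 in all libraries. Their part in the results was not tested. Fewer cells of a type and less RNA per cell cannot be told apart in such samples. Mouse 5 held the largest macrophage, endothelial and neutrophil marker shares and the smallest hepatocyte marker share in both fractions. Without it 18 ER genes and 1 cytosolic gene were called higher, beside 3254 of all tested genes. The difference of the class medians was then 1.46. Both fractions of a mouse come from the same homogenate, so leaving 1 mouse out cannot test the part of cell types.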

How the data were processed

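Poly(A) RNA from 6 WAM and 6 lysate libraries, 1 of each per mouse, was made into directional libraries from 250 ng, per the labels' protocols. The deposited estimated counts per Ensembl gene are not normalised, per the file headers; 32.5% of non-zero values were not whole and all were rounded. The submitters' processing notes name kallisto 0.44.0 and fastp 0.12.4, beside R 3.5.0 and DESeq2 1.20.0, with no role; the genome build is not given in the sources used here. Deposited TPM values are per gene and library, from the authors' complete list. The authors' enrichment is a ratio in percent (coefficient-divided WAM TPM over lysate TPM), per the file headers; their yes or no localisation marks were used as labels. Another 60 per-sample columns were left out.

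The count table, with 48042 lines, was collapsed to 35498 genes. Genes were tested on all 12 libraries with edgeR 4.0.16 (quasi-likelihood F test, TMM, filterByExpr, which kept 11181 genes; limma 3.58.1, R 4.3.3), with Benjamini-Hochberg adjustment over all tested genes and calls at adjusted p under 0.05. TMM factors were 0.604 to 0.772 in WAM and 1.38 to 1.54 in lysates. Within-mouse values are differences of log2 CPM with a prior count of 2. P-values reflect how libraries of 1 fraction vary. Their precision is set by 6 libraries a group and by depths of 7400274 to 12024128 counts. In counts simulated for 11181 genes, 50 genes were changed 1.5-fold, 100 were changed 2-fold and 50 were changed 4-fold. The test found 34%, 77% and 98% of these changes and made 4 false calls. In the measured libraries 58.2% of tested genes were called, a far larger share than was changed there. How many changes are found or falsely called at that share was not tested.

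Equal mouse numbers mark the same animal. Deviations from the group mean correlated between the 2 libraries of a mouse at r of 0.452 to 0.771, and between different mice at no more than 0.404, and 6 of 6 WAM libraries matched their own lysate best. The mouse was not in the main model, and the fit with it as a replicate block was an alternative. All pairs of libraries within a group differed by more than sampling noise (chi-square per degree of freedom at least 12.3 over 30 pairs).

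Members and gene lists were chosen with earlier results of these data known. For each family, values by library are given for the 3 tested members with the highest mean TPM. The members with the highest and lowest log2 fold change have them too, as do called members whose sign differs from most of their class. Pathway genes are named as the most abundant or the largest called change of their list, and others only as ranges or where singled out. Loci, coding sequences and 31-base words were taken from GENCODE M21 (GRCm38) by Ensembl identifier, which need not be the authors' annotation. Alternatives were DESeq2 size factors, library totals, mitochondrially encoded genes left out, no filter, DESeq2 1.42.0, limma on median-centred log2 TPM plus 1, 0.1 or 5, the replicate block, leaving out each mouse, Ugt1a genes summed, members under 1 TPM in lysates left out, and a length trend removed.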

Additional observations from a re-analysis of the deposited data

Results flagged for a closer look

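Mgst1 in lysates had 1 library apart from the others: mouse 2 at 1730 CPM, with the nearest of the other 5 at 1444 CPM. The gap was 0.655 of the range of the 6 lysates, above the critical value of Dixon's test at 95%. Of 35 groups of 6 values checked in this way, this was the 1 that passed, and chance alone passes about 1 in 20. Without mouse 2 the log2 fold change of Mgst1 was 1.57, against 1.51 with all libraries.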

How the results depend on the processing

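The difference between the ER and cytosolic medians was 1.48 and stayed between 1.33 and 1.64 under every alternative except limma on TPM plus 5, where it was 1.14; without each mouse it ran from 1.33 to 1.59. The split into higher and lower calls rested on the scaling. On library totals 503 genes were higher and 8652 lower, against 3293 and 3218 on the TMM scale; 8 ER genes were higher (median 0.33), and 0 cytosolic genes were higher and 18 lower (median -1.12). There all 24 cytosolic and 2 ER genes were below 0, and of the 16 members given by library Ugt2b38 (-0.073), Sult5a1 (-0.63) and Gstm4 (-0.36) changed sign. With limma on TPM plus 5, 5231 of the 11181 tested genes were higher and 2937 lower. The ER median was 0.80, the cytosolic median -0.34, and 7 of the 24 tested cytosolic genes were lower. With TPM plus 1 the ER median was 1.22. There 2 cytosolic genes were higher and 4 lower, beside 4130 higher and 2434 lower of all tested genes. With TPM plus 0.1, 1 cytosolic gene was lower, beside 2648 of all tested genes, and Gstm1 turned to 0.13. The cause was not tested. With the replicate block 4 cytosolic genes were higher and 5 lower, beside 3747 and 4044 of all tested genes. The difference of medians there was 1.49. Without each mouse, 18 to 19 ER genes were higher, and 1 cytosolic gene was higher and 0 to 1 lower (Gstt2, without mouse 6). With the Ugt1a genes summed, 12 of 13 ER entries were higher. No tested member was under 1 TPM in lysates on average, so leaving such members out changed nothing. Of all alternatives for the 16 members given by library, 204 values kept direction and call, 26 gained a call, 6 lost one and 4 changed sign. Low counts limit Ugt1a10, Ugt1a7c, Ugt2b37, Mgst3, Sult1c2 and Gstm5, and shared sequence limits the Ugt1a genes, Ugt2b5, Ugt2b38, Gstp2 and Gsta2.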
